A study of Mus musculus with 15 samples.

Results

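The mouse heart makes most of its ATP by oxidative phosphorylation, and this account follows the nuclear genes for the subunits of its 5 complexes in hearts labelled as cardiac knockouts of MAT1. Genes were taken by symbol: the Nduf genes of complex I without the assembly factors, Sdha to Sdhd of complex II, the Uqcr genes and Cyc1 of complex III, the Cox4 to Cox8 genes of complex IV, the Atp5 genes of ATP synthase (complex V), and Cycs, the electron carrier cytochrome c. Each had to have a probe set mapped to 1 symbol only, and the brightest such probe set stood for the gene. This gave 71 of the 8251 genes on the array, 29 of complex I, 4 of complex II, 8 of complex III, 15 of complex IV, 14 of complex V and Cycs. MAT1, encoded by Mnat1, assembles the kinase of the general transcription factor TFIIH. CKO (knockout) hearts came from mice that carried floxed MAT1 on both alleles and 1 copy of a Cre transgene (αMHC-Cre+/0; MAT1F/F). Control littermates carried the same Cre and 1 floxed allele beside a wild-type one (αMHC-Cre+/0; MAT1F/+), so every heart carried Cre and at least 1 floxed allele. The Cre is driven by the promoter of the alpha-myosin heavy chain gene, which is active in heart muscle cells, so other cells of the heart keep MAT1. Hearts were taken at 2 weeks of age (3 control and 4 CKO arrays) and at 4 weeks (3 control and 5 CKO arrays). Total RNA was hybridised to 1-colour arrays. The labels do not say that each array is a separate mouse, so p-values measure the spread between arrays, which may be technical.

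Complexes I to IV pass electrons from NADH and succinate to oxygen through coenzyme Q and cytochrome c. Complexes I, III and IV pump protons across the inner mitochondrial membrane as they do so, and complex V uses the returning protons to make ATP. Complex II is at the same time the succinate dehydrogenase of the citric acid cycle and pumps no protons. All subunits of complex II are encoded in the nucleus, while the other complexes also hold subunits encoded by mitochondrial DNA. Heart muscle is packed with mitochondria, and in the weeks after birth it moves from glucose and lactate towards fatty acids as its main fuel, with muscle forms of some complex IV subunits replacing the forms found in most tissues.

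Intensities here are linear brightness values per probe set, and differences are on the log2(intensity + 16) scale, CKO minus control unless stated, with the standard error of a limma fit over all 15 arrays. A gene is called where the p-value, adjusted by Benjamini-Hochberg over all 4950 genes tested, is under 0.05. The subunit genes were among the brightest on the array: the 63 that passed the filter on dim genes had mean intensities from 286.9 (Atp5g1) to 6873 (Cox6c), and their median of 3595 lay at the 98.8th percentile of the genes tested. The highest value of any probe set on any array was 13364. Of the 71 genes 8 were dim and left out of the tests: Ndufs4, Ndufc2, Ndufa1, Ndufa12, Cox5a, Cox6b1, Cox8a and Atp5j2. The dimmest member that passed was Atp5g1 at 286.9, and the brightest left out was Cox5a at 171.9.

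A split of the arrays into sets of 6 and 9, seen in these data from pairwise correlations and not mentioned in the labels, crosses all 4 groups. Set 1 held sample 1 of control and samples 1 and 2 of CKO at 4 weeks, and sample 3 of control and samples 3 and 4 of CKO at 2 weeks. Results with the array set as a block are given beside the counts. Because the sets were found from the same intensities, the block can make the spread and the adjusted p-values too small. Calls with the block are therefore a description and not firmer than those without it. Set 1 holds 1 control array at each age, so values within it rest on a single control array per age. By Xist against Uty, 4 of 5 CKO and 1 of 3 control hearts at 4 weeks were female, against 1 of 4 and 1 of 3 at 2 weeks. Mnat1 itself was read by a pair of dim probe sets that did not pass the test at either age. At 4 weeks they differed by 0.53 ± 0.47 (adjusted p = 0.726) and -0.03 ± 0.27 (adjusted p = 0.994) in the limma fit to all probe sets. No source used here places them inside or outside the deleted segment, so they do not check the labels, and CKO means hearts so labelled. Heart muscle markers (Myh6, Tnnt2, Actc1, Myl2 and others) were bright on every array, with 12 of 13 listed on the array. Their summed intensity ran from 86531 to 95132 in control and from 73499 to 80579 in CKO hearts at 4 weeks.

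At 4 weeks the respiratory chain and ATP synthase genes were lower in CKO hearts. Of 63 tested, 17 fell and 0 rose, where 4.61% of all genes tested were called lower and 6.59% higher. The median difference was -0.30, a 1.23-fold lower level, against 0.08 over all genes tested. Differences lay below 0 in 55 of the 63, against 39.2% of all genes. In 25 genes every CKO array lay below every control array (6.57% of all genes did so). In 1, Atp5g1, every CKO array lay above (10.8%). The median standard error was 0.13 for the 63 bright genes and 0.23 over all genes tested. A difference of equal size is thus called, or free of overlap, more readily among the members, and these shares are not like for like. The falls ran from 1.13-fold for Atp5md to 2.32-fold for Sdha. With the array set as a block, 46 fell and 2 rose, against 12.2% and 23.2% of all genes. Without sample 2 or sample 3 of control at 4 weeks, 9 and 8 were called lower. Ndufb2, Ndufs1, Sdha, Uqcrc1, Cox6a2, Cox7a1, Atp5a1 and Atp5g2 were called in each of the 15 fits that leave out 1 array, and the other 9 lost the call in 1 to 11 of them. Differences were below 0 within both sets in 53 of 63 genes, with medians of -0.28 in set 1 and -0.25 in set 2. In whole hearts, fewer muscle cells and less RNA per muscle cell cannot be told apart.

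**Figure D1:**
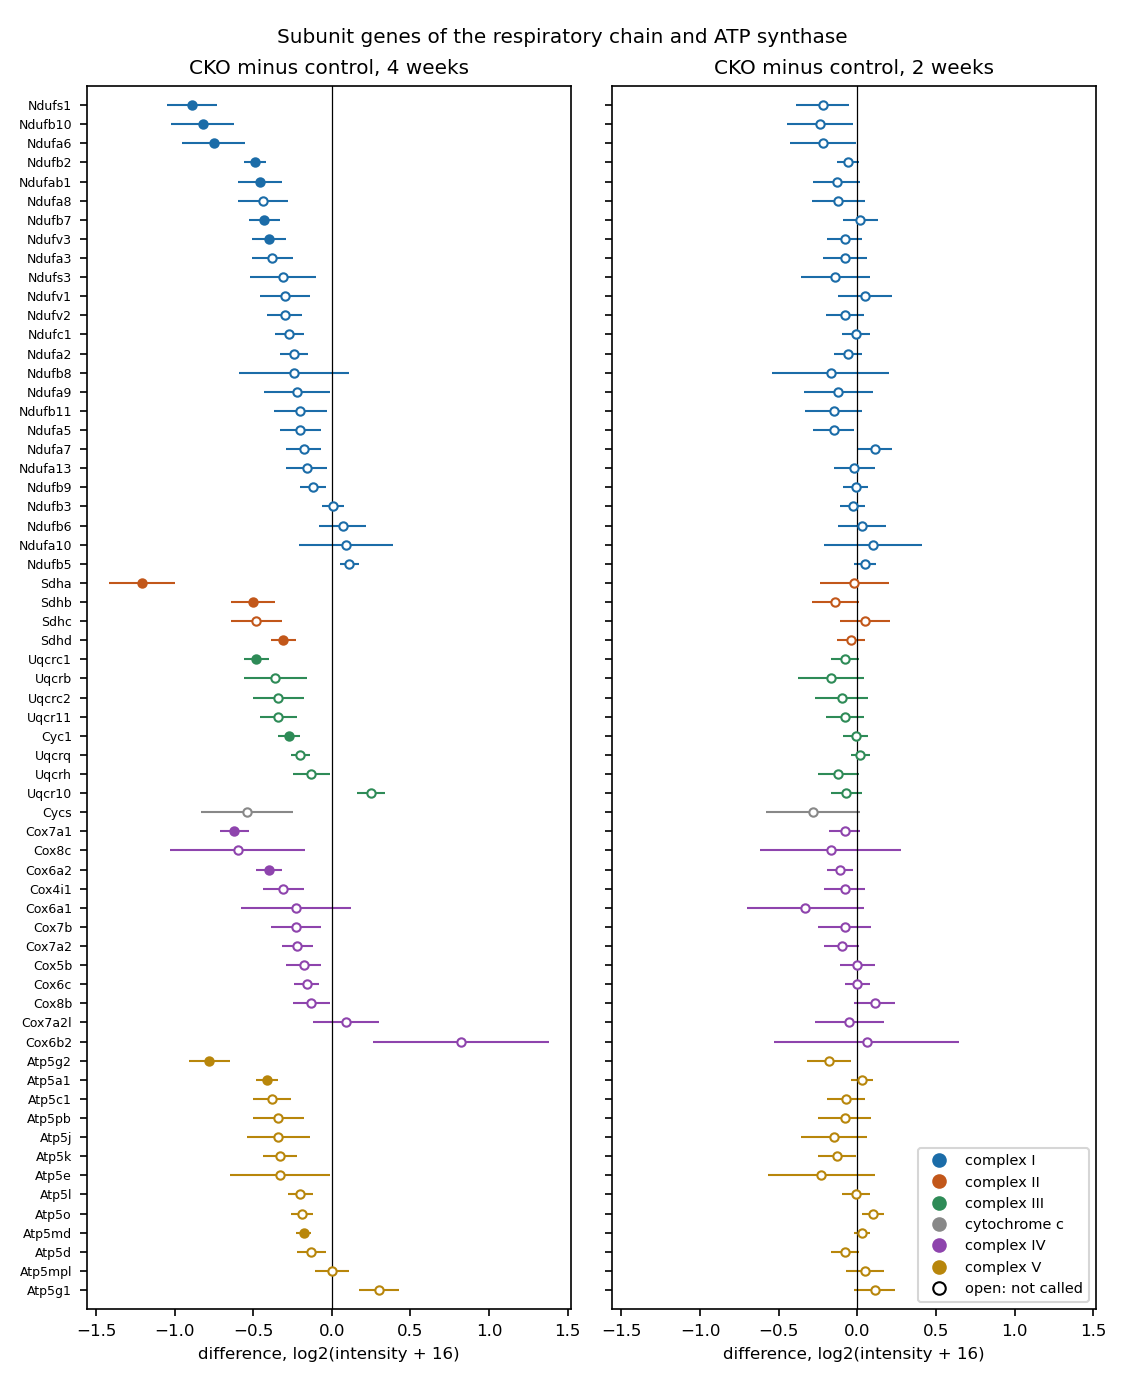
Difference of CKO from control hearts for the 63 tested genes at 4 weeks (left) and 2 weeks (right), on the log2(intensity + 16) scale, with the standard error as a bar; filled points are called. At 4 weeks 55 of 63 points lie left of 0 and 17 are filled, led by Sdha at -1.21, while at 2 weeks none is filled.

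Cell type markers were counted in the same comparison, where 4.61% of all genes tested were called lower and 6.59% higher. With the array-set block these shares were 12.2% and 23.2%. Of 12 tested heart muscle markers 6 fell and 1 (Actn2) rose at 4 weeks (7 and 1 with the array-set block), with a median of -0.35, close in size to the median of the subunit genes. The level of the subunit genes minus that of these markers, both as medians of centred log2 values per array, averaged 0.02 ± 0.06 over the 3 control arrays and 0.04 ± 0.11 over the 5 CKO arrays (SD). All 10 fibroblast markers rose, with and without the block, with a median of 1.34, and their summed intensity ran from 11762 to 13637 in control and from 25847 to 34676 in CKO hearts. Of 8 endothelial markers tested 1 rose (with the block 2 rose and 1 fell), and of 5 smooth muscle markers 2 rose (3 with the block). The endothelial counts with the block lay near the shares of all genes. None of the tested macrophage (8), lymphocyte (2), erythroid (2) and adipocyte (2) markers was called in the limma fit without the block. With it Cd79b (lymphocyte, adjusted p = 0.00433), Hba-a1 (erythroid, adjusted p = 0.0204) and Cidea (adipocyte, adjusted p = 0.00107) were called higher, and no macrophage marker was. Of 5 tested skeletal muscle markers 1, Myl1, rose (2 with the block). Summed intensities in control and CKO hearts were 6282 to 8218 and 6977 to 9904 for endothelial markers, 2788 to 3561 and 4307 to 7297 for smooth muscle, and 2669 to 3398 and 7401 to 8811 for skeletal muscle. They were 3082 to 4640 and 3062 to 5965 for macrophage markers, 676 to 1069 and 812 to 1358 for lymphocyte markers, 6002 to 7397 and 7501 to 13440.0 for erythroid markers and 817 to 1060.0 and 1132 to 1279 for adipocyte markers. The skeletal muscle sum rested largely on Myl1 (319 to 6315 over all arrays), and the smooth muscle sum on Acta2 (1392 to 5471). The brown fat marker Ucp1 was dim throughout, between 6.26 and 55.4. The part of these cell types in the fall of the subunit genes was not tested.

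Genes that fell were found in each of the 5 complexes, and the promoters of some are shown. For complexes I to V these are the 100 bases before the start of the gene that fell with the smallest p (the second smallest in complex V), followed by Cycs and by Uqcr10, a gene with a positive difference. Sequences are from RefSeq (GRCm38.p6), 5′ to 3′ on the gene's strand. Capitals mark the word GCGCANG on either strand, in which N is any base. The word with T in that place, GCGCATG, is the core of the site of NRF1, a regulator of nuclear genes for mitochondria.
Ndufb2 (complex I, chr6:39592465-39592564, plus strand): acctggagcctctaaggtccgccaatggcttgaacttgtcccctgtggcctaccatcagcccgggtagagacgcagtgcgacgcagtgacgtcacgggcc
Sdha (complex II, chr13:74350241-74350340, minus strand): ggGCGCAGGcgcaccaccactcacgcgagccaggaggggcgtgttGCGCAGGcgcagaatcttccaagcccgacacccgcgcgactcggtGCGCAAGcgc
Uqcrc1 (complex III, chr9:108936548-108936647, plus strand): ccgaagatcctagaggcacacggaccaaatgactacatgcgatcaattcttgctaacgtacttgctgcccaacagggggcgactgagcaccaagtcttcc
Cox7a1 (complex IV, chr7:30184071-30184170, plus strand): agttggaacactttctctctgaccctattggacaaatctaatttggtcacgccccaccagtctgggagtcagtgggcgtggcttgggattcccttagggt
Atp5g2 (complex V, chr15:102671048-102671147, minus strand): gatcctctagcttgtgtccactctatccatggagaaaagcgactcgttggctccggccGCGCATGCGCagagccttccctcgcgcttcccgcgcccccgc
Cycs (cytochrome c, chr6:50566570-50566669, minus strand): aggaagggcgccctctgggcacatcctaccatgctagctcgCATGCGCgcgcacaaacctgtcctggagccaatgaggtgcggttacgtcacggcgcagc
Uqcr10 (complex III, chr11:4704345-4704444, minus strand): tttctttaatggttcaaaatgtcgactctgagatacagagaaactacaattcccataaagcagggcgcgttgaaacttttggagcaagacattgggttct

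Sdha, with the deepest fall of the members tested, held the wider word 3 times in this stretch, and none had T in the open place. Atp5g2 and Cycs held GCGCATG, in Atp5g2 on both strands, where the matches overlap. The stretches of Ndufb2, Cox7a1, Uqcrc1 and Uqcr10 held none, and in Uqcrc1 the word lay after the start. Promoter windows of 300 bases (250 before to 50 after the start) were found for 57 of the 71 genes, with 62 windows among 32851 in the table. GCGCATG was in 21.0% of the members' windows, 3.91% of all windows and 6.99% of the windows of tested genes. CCGGAAG, the core of the GABP site, was in 24.2% and 8.86% of the first 2 and in 820 of the 5119 windows of tested genes. AAGATGG, the core of the YY1 site, was in 12.9%, 6.34% and 7.31%, and AAGGTCA, the core of the site of estrogen-related receptors, in 8.06%, 4.72% and 3.54%. GCGCANG, searched after the Sdha window had been seen, was in 41.9%, 16.6% and 28.6%. It contains every GCGCATG match. Among the members themselves, 30.8% of the 13 windows of genes that fell and 22.0% of the 41 windows of genes not called held GCGCATG, and the same shares held CCGGAAG. For AAGATGG the shares were 0% and 14.6%, for AAGGTCA 15.4% and 7.32%, and for GCGCANG 53.8% and 39.0%. These shares describe letters in the windows and were not tested.

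Complex I takes electrons from NADH through a matrix arm and pumps protons in a membrane arm. Of its 25 tested genes 7 fell and 0 rose, with a median of -0.27, and with the array-set block 18 fell. For this and the other complexes, 4.61% of all genes tested were called lower and 6.59% higher at 4 weeks. With the block these shares were 12.2% and 23.2%. In the matrix arm 3 of 10 fell (median -0.30), and in the membrane arm 3 of 14 (median -0.22). Ndufab1, the mitochondrial acyl carrier protein, sits in both arms and fell by 0.46 ± 0.14 on the log2 scale (adjusted p = 0.047). This call was the closest to the threshold and was lost in 11 of the 15 fits that leave out 1 array, with an adjusted p of up to 0.197.

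Ndufs1, a core subunit that carries iron-sulfur clusters of the matrix arm, read 2629, 3183 and 3178 in control and 1346, 1319, 1483, 1849.7 and 2171 in CKO hearts at 4 weeks. No CKO array reached a control array, and the difference was -0.89 ± 0.16 (adjusted p = 0.00228). Ndufb2, an accessory subunit of the membrane arm, read 4801, 4719 and 4984 in control and 3331, 3378, 3588, 3111 and 3811 in CKO hearts. Its groups were far apart for their spread, and the difference of -0.49 ± 0.07 had the smallest adjusted p of all members, 0.000323. Its 3 other probe sets differed by -0.50, -0.64 and -1.21, of which the last 2 are dim. Ndufb10, also of the membrane arm, read 2984, 4378 and 4596 in control and 1761, 1611, 2649, 2257 and 3146 in CKO hearts. Here the groups overlapped, because the set 1 control array was low, and within the sets the differences were -0.82 and -0.75. The overall difference was -0.82 ± 0.20 (adjusted p = 0.0185), and a second probe set gave -0.91 ± 0.22.

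Ndufb7, another membrane arm subunit, read 5463, 4837 and 5599 in control and 4210.2, 4229.8, 4270.5, 3186 and 3784 in CKO hearts at 4 weeks. The groups did not overlap, and the difference was -0.43 ± 0.10 (adjusted p = 0.0139). A second, dim probe set of Ndufb7 differed by 0.44 ± 0.31 in the other direction, and the mean of both was at 0.003 (adjusted p = 0.994), so the fall of Ndufb7, here and from 2 to 4 weeks in CKO hearts, rests on the brighter probe set. Ndufa6, a matrix arm subunit that binds the acyl carrier protein, fell by 0.75 ± 0.20 on the log2 scale (adjusted p = 0.0262), and Ndufv3, an accessory subunit beside the NADH site, by 0.40 ± 0.11 (adjusted p = 0.0233). The core subunits at the NADH site, Ndufv1 and Ndufv2, each differed by -0.30 and did not pass the test (adjusted p = 0.311 and 0.11), and neither did the core subunit Ndufs3 at -0.31 ± 0.21 (adjusted p = 0.454). With the array-set block all 3 passed, at -0.33, -0.29 and -0.27 (adjusted p = 0.00327, 0.00272 and 0.0103).

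In the membrane arm 4 genes lay at or above 0. Ndufb3 read 4059, 4199 and 4503 in control and 4051, 4361, 4471, 4246 and 4253 in CKO hearts, with full overlap and a difference of 0.01 ± 0.07 (adjusted p = 0.977). Ndufa10 read 544, 255 and 251 in control and 502, 493, 324, 272 and 235 in CKO hearts. At 4 weeks its values followed the array sets, higher in set 1 than in set 2 in both groups, and it differed by 0.09 ± 0.30 (adjusted p = 0.935). Ndufb5 differed by 0.11 ± 0.06 and Ndufb6 by 0.07 ± 0.15 (adjusted p = 0.376 and 0.878). Ndufs4, an accessory subunit of the matrix arm whose loss in mice causes a Leigh-like disease, was left out as dim. Control arrays read 94.1, 155 and 129 and CKO arrays 28.6, 21.9, 26.6, 39.6 and 52.4 at 4 weeks. No CKO array reached a control array, and in a limma fit to all genes without the filter the difference was -1.52 ± 0.21 (adjusted p = 0.000502).

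Complex II oxidises succinate. Sdha carries the flavin, Sdhb the iron-sulfur clusters, and Sdhc and Sdhd anchor the complex in the membrane. Of the 4 genes 3 fell, and in all 4 every CKO array lay below every control array at 4 weeks. With the array-set block all 4 fell. The median was -0.49, the lowest of the 5 complexes, but whether complex II differed from the other complexes was not tested.

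Sdha read 1122, 1001 and 1176 in control and 563, 591, 302, 459 and 468 in CKO hearts. The highest CKO array lay well below the lowest control array, and the difference was -1.21 ± 0.21 (2.32-fold lower, adjusted p = 0.0016). Sdhb read 4294, 5241 and 5566 in control and 2914, 2834, 3822, 4174 and 4184 in CKO hearts, with the set 1 arrays lower in each group. Its difference was -0.50 ± 0.14 (adjusted p = 0.035). Sdhc read 4116, 3132 and 3070.0 in control and 2591, 2540.0, 2158, 2393 and 2521 in CKO hearts. It did not pass the test at -0.48 ± 0.16 (adjusted p = 0.0631), although its groups did not overlap, and the set 1 control array was the highest. Sdhd read 2847, 3008 and 2949.6 in control and 2601, 2531, 2156, 2213 and 2385 in CKO hearts. Its difference was smaller, at -0.31 ± 0.08 (adjusted p = 0.0265).

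**Figure D2:**
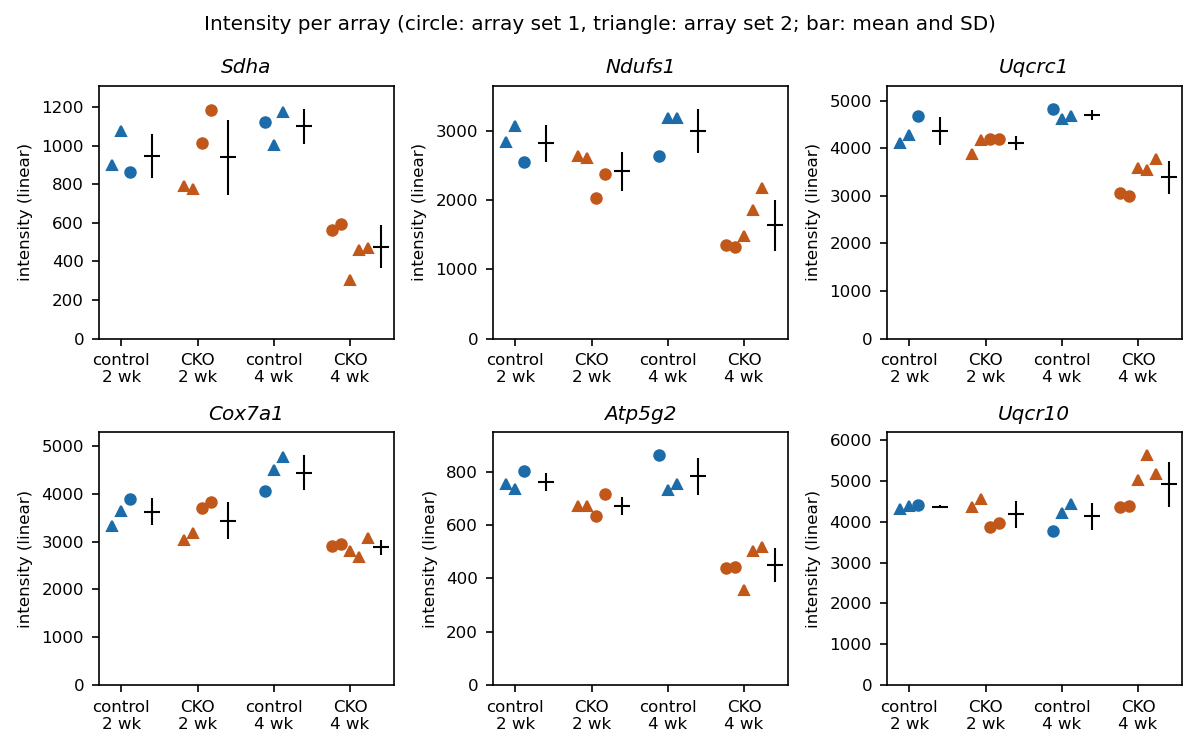
Linear intensity per array of Sdha, Ndufs1, Uqcrc1, Cox7a1, Atp5g2 and Uqcr10 in the 4 groups, with the mean and SD beside each group; circles are array set 1 and triangles array set 2. In the first 5 genes all CKO arrays at 4 weeks lie below all control arrays at 4 weeks, and Uqcr10 lies higher, from 4359 to 5625 in CKO against 3763 to 4428 in control hearts.

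Complex III passes electrons from coenzyme Q to cytochrome c. Of its 8 tested genes 2 fell and 0 rose, with a median of -0.30, and with the array-set block 6 fell and 1 rose. Uqcrc1, a core protein of the complex, read 4826, 4618 and 4677 in control and 3054, 3002, 3582, 3535 and 3776 in CKO hearts at 4 weeks. Both groups were tight and did not overlap, with a difference of -0.48 ± 0.08 (adjusted p = 0.00164). Cyc1, the haem-bearing cytochrome c1, read 6296, 6607 and 6900.1 in control and 5055, 4819.6, 5704, 5938 and 6002 in CKO hearts. It fell by 0.27 ± 0.07 on the log2 scale (adjusted p = 0.0279), but its second probe set differed by 0.46 ± 0.28, and with the array-set block the 2 probe sets were called in opposite directions (-0.26 and 0.41, adjusted p = 0.00312 and 0.00458 over all probe sets). The direction of Cyc1 is therefore uncertain.

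Uqcrq, a small subunit, read 6393, 6939 and 7339 in control and 5669, 5552, 6054, 6140.4 and 6615 in CKO hearts. The groups overlapped and the difference of -0.20 ± 0.06 just missed the threshold (adjusted p = 0.0543). Uqcr11, another small subunit, read 3587, 4522 and 4741 in control and 3003, 2895, 3615, 3434 and 3895 in CKO hearts, at -0.34 ± 0.12 (adjusted p = 0.0747). For both, the control array of set 1 lay among the CKO arrays of set 2. Uqcrb read 2959.6, 4284 and 4724 in control and 2512, 2353, 3398, 3399 and 3782 in CKO hearts, at -0.36 ± 0.20 (adjusted p = 0.333). Uqcrh, the hinge protein at the cytochrome c site, read 3599, 4549.7 and 4947 in control and 3405, 3538, 4307, 4422 and 4206 in CKO hearts, at -0.13 ± 0.12 (adjusted p = 0.662). Both overlapped widely between the groups. The array-set block called Uqcrq, Uqcr11 and Uqcrb lower (-0.19, -0.33 and -0.33, adjusted p = 0.0106, 0.00142 and 0.00272), and Uqcrh was not (adjusted p = 0.145).

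Uqcr10, a small subunit near the iron-sulfur protein, stood on the other side of 0. Control arrays read 3763, 4207 and 4428 and CKO arrays 4358, 4385, 5031, 5625 and 5174. The CKO arrays of each set were higher than the control arrays of that set, and the groups overlapped only across sets. The difference was 0.25 ± 0.09 (adjusted p = 0.108), and 0.26 ± 0.06 with the array-set block (adjusted p = 0.00269). Cycs, the mobile carrier cytochrome c, read 1883, 2576 and 2918 in control and 1208, 1136, 1999.9, 2201 and 2108 in CKO hearts. Its level followed the array set in every group, so the overall difference of -0.54 ± 0.29 did not pass the test (adjusted p = 0.306). With the array-set block it was -0.49 ± 0.08 (adjusted p = 0.000158), and it was below 0 within each set (-0.68 and -0.38).

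Complex IV reduces oxygen, and several of its subunits come in a heart and skeletal muscle form and a form of most other tissues. Of 12 tested genes 2 fell and 0 rose, with a median of -0.22, and with the array-set block 7 fell and 1 rose. The median was -0.14 within set 2, -0.141 without sample 2 of CKO and -0.149 without sample 3 of control at 4 weeks. The 2 genes that fell, Cox7a1 and Cox6a2, both encode muscle forms. Cox7a1 read 4054, 4497 and 4768 in control and 2901, 2946, 2797, 2674 and 3074 in CKO hearts at 4 weeks. The groups lay far apart, with a difference of -0.62 ± 0.09 (1.54-fold lower, adjusted p = 0.000633). Its counterpart of other tissues, Cox7a2, read 4788, 4845 and 5458 in control and 3780.2, 3635, 4672, 5018 and 4654 in CKO hearts. These values overlapped, at -0.22 ± 0.10 (adjusted p = 0.218), and with the array-set block Cox7a2 was also called lower (-0.21 ± 0.08, adjusted p = 0.0431).

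Cox6a2 read 7138, 8559 and 8539 in control and 5723, 5662, 6099, 6843 and 6225 in CKO hearts, with no overlap and a difference of -0.40 ± 0.08 (adjusted p = 0.00342). Its counterpart Cox6a1 read 1551, 2752 and 2851 in control and 1275, 1237, 2652, 2292 and 2968 in CKO hearts. Cox6a1 followed the array sets, lower in set 1 than in set 2 in both groups, and differed by -0.23 ± 0.35 (adjusted p = 0.812). Cox8b, the muscle form of subunit VIII, read 4517, 5548 and 6077 in control and 4098, 4313, 5296, 5460.5 and 5468 in CKO hearts. It overlapped and differed by -0.13 ± 0.12 (adjusted p = 0.672), so the third muscle form did not pass the test. Cox8a, its counterpart, was dim, with 39.8, 12.8 and 0.95 in control and 62, 66.2, 6.58, 1.67 and 0.95 in CKO hearts, down to the floor of 0.95. Whether muscle forms differed from their counterparts was not tested.

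Cox4i1, the usual form of subunit IV, read 3239, 3816 and 3632 in control and 2420.2, 2583, 3133, 3128 and 3135 in CKO hearts. The groups were just separate, and the difference of -0.31 ± 0.13 did not pass the test (adjusted p = 0.149), while with the array-set block it was -0.29 ± 0.07 (adjusted p = 0.00301). No single-symbol probe set was found for Cox4i2, the other form. Cox7a2l, a relative of Cox7a2 that joins complexes III and IV into supercomplexes, read 1229, 1667 and 1719 in control and 1252, 1313, 1742, 1887 and 2092 in CKO hearts. It overlapped, at 0.09 ± 0.21 (adjusted p = 0.887). Cox6b2, known mainly from testis, had the highest difference of all members at 0.82 ± 0.56, but did not pass the test (adjusted p = 0.462). Control arrays read 439, 249.8 and 168 and CKO arrays 1064, 879, 384, 282 and 250.1. The array-set block called it higher (0.73 ± 0.18, adjusted p = 0.00466). Its 2 other, dimmer probe sets differed by -0.02 and -0.53, so its direction is uncertain. Cox8c was among the genes called lower with the block (-0.67 ± 0.20, adjusted p = 0.016). Its second probe set lay at 0.21 with the block, so the direction of Cox8c is uncertain too.

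**Figure D3:**
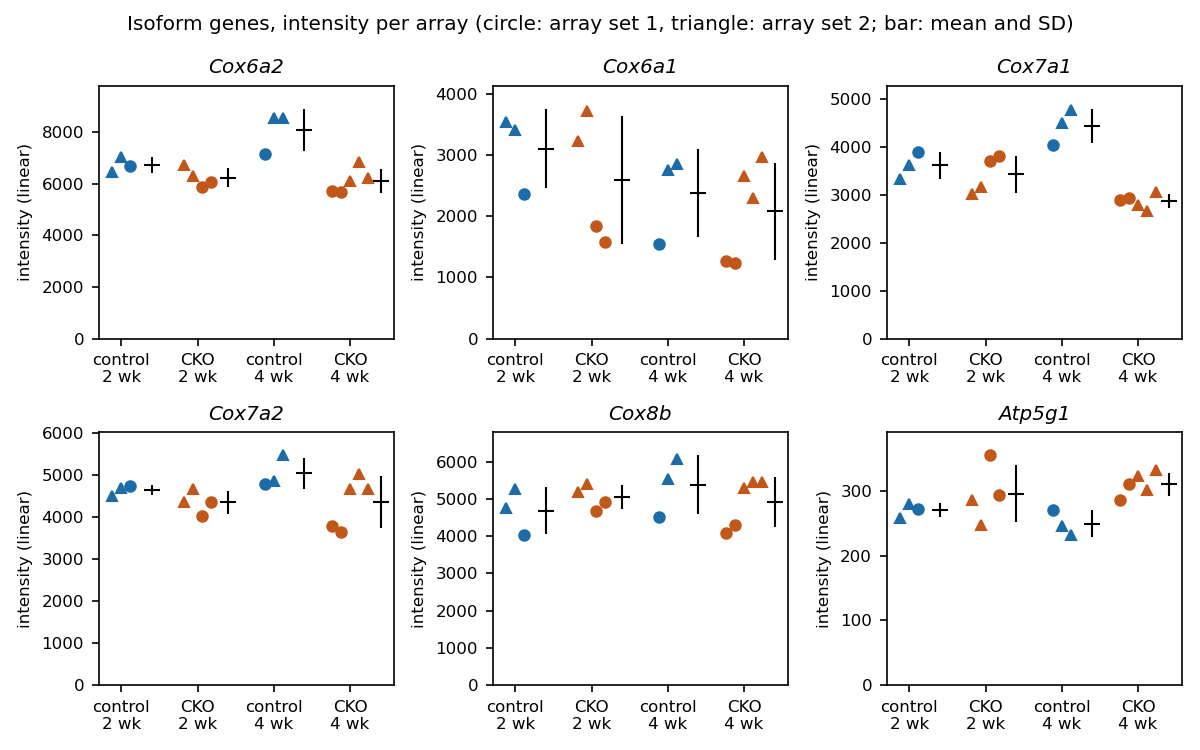
Linear intensity per array of the complex IV isoform genes Cox6a2, Cox6a1, Cox7a1, Cox7a2 and Cox8b and of the c-subunit gene Atp5g1, with the mean and SD beside each group; circles are array set 1 and triangles array set 2. Cox6a2 and Cox7a1 lie apart between control and CKO hearts at 4 weeks, Cox6a1 separates by array set in every group, and Atp5g1 lies higher in CKO hearts at 4 weeks.

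Complex V has a catalytic F1 head, a ring of c subunits that turns with the protons, a peripheral stalk that holds the head still and small membrane subunits. Of its 13 tested genes 3 fell and 0 rose, with a median of -0.33, and with the array-set block 10 fell. The median was -0.183 without sample 3 of control, -0.195 without sample 1 of CKO and -0.188 without sample 2 of CKO at 4 weeks. In the head 1 of 4 genes fell (median -0.36), none of 3 peripheral stalk genes (median -0.34), 1 of 2 c-subunit genes and 1 of 4 small membrane subunits (median -0.19). With the block all 3 stalk genes, Atp5o, Atp5pb and Atp5j, also fell. Atp5a1, the alpha subunit of the head, read 6534, 7373 and 7551 in control and 5064, 5181, 5505, 5362 and 5702 in CKO hearts at 4 weeks. The groups were separate, with a difference of -0.41 ± 0.07 (adjusted p = 0.00111).

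Atp5c1, the gamma subunit that forms the central shaft, read 4956, 5849 and 5980.5 in control and 3532, 3638, 4794, 4826 and 4787 in CKO hearts. It differed by -0.38 ± 0.12 with an adjusted p of 0.0504, just outside the threshold, and a second probe set gave -0.36 ± 0.19. The array-set block called it lower (-0.37 ± 0.06, adjusted p = 0.000286). Atp5e, the epsilon subunit, read 1917, 3544 and 3665 in control and 1589.7, 1496, 3093, 2764 and 3328 in CKO hearts. Set 1 arrays read lower than every set 2 array, and the difference was -0.33 ± 0.32 (adjusted p = 0.676), called lower with the block at -0.27 ± 0.08 (adjusted p = 0.0128). Atp5md, a small membrane subunit, read 6928, 6906 and 7458 in control and 6062, 6040.1, 6383, 6462 and 6467 in CKO hearts. Its difference of -0.18 ± 0.05 (adjusted p = 0.0265) was the smallest of the 17 falls. The call was lost in 8 of 17 other settings, among them quantile normalization and the fit within either array set, and without any 1 of samples 2 and 3 of control and 1 and 2 of CKO at 4 weeks. Atp5mpl, a small proteolipid, read 4211, 3862 and 4058 in control and 4519, 4358, 4006, 3531 and 3865 in CKO hearts, with full overlap (adjusted p = 0.999).

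The same c subunit is encoded by several genes, which differ in the part cleaved off on import into mitochondria. Atp5g2 read 861, 732 and 755 in control and 439, 442, 357, 503 and 518 in CKO hearts at 4 weeks. It fell by 0.78 ± 0.13 on the log2 scale (1.72-fold, adjusted p = 0.00164), while its second, dim probe set differed by -0.04 ± 0.16. Atp5g1 read 272, 247 and 232 in control and 286, 312, 323, 303 and 332 in CKO hearts. Every CKO array lay above every control array, but the difference of 0.30 ± 0.13 did not pass the test (adjusted p = 0.17), and its dim second probe set gave 0.05 ± 0.44. Atp5g3 had no single-symbol probe set.

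At 2 weeks no subunit gene passed the test. In the limma fit 0 of 63 were called lower or higher (background 0% and 0.0202% of all genes), none had an unadjusted p under 0.05 (1.03% of all genes did), and the array-set block also called 0 of them lower or higher (0.0202% and 0.0606%). Differences lay below 0 in 47 of 63 genes, against 39.8% of all genes. The median difference was -0.08, against 0.04 over all genes. It was -0.08 for complex I, -0.03 for II, -0.08 for III, -0.08 for IV and -0.07 for V. The smallest unadjusted p was 0.171. No marker list had a called gene at this age.

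Sdha read 900.4, 1074 and 863 in control and 791, 774, 1011 and 1182 in CKO hearts at 2 weeks. The CKO arrays of set 2 lay below all control arrays and those of set 1 did not, and the difference was -0.02 ± 0.22. Ndufs1 read 2836, 3069 and 2544 in control and 2642, 2607, 2030.3 and 2376 in CKO hearts, at -0.22 ± 0.17. Cox6a2 read 6445, 7032 and 6696 in control and 6708, 6282, 5853 and 6053 in CKO hearts, at -0.11 ± 0.08. In both, the ranges overlapped. Atp5g2 read 753, 736 and 801 in control and 671, 670.3, 634 and 717 in CKO hearts, at -0.18 ± 0.14. It was the 1 gene of the 63 whose CKO arrays all lay below all control arrays at 2 weeks (0.586% of all genes did so). Atp5o, which links stalk and head, read 5061, 5112 and 5311 in control and 5060.2, 5607, 5678 and 5851 in CKO hearts, at 0.10 ± 0.07. Atp5o, Cox6a2, Ndufs1 and Atp5g2 had the 4 smallest p-values of the 63 at 2 weeks, and each adjusted p in the limma fit was 1.0.

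The other complex II genes had overlapping groups at 2 weeks. Sdhb read 4396, 4617 and 4305 in control and 4466, 4464, 3546 and 3745 in CKO hearts (-0.14 ± 0.15). Sdhc read 3006, 3093 and 4155 and 2899, 2969, 4225 and 4178 (0.05 ± 0.16), and Sdhd 2989, 3051 and 2987 and 2767, 2991, 3168 and 2828 (-0.04 ± 0.09). Cycs read 2999, 3126 and 1846 in control and 2723, 2825, 1484 and 1772 in CKO hearts (-0.28 ± 0.30), again split by array set. Cyc1 read 6298, 6787 and 6638 and 6818, 6555, 6247 and 6568 (-0.01 ± 0.08).

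Whether the CKO effect differed between the ages was tested directly, as the difference at 4 weeks minus that at 2 weeks. Of 63 genes 2 were called, both lower at 4 weeks, against 0.788% of all genes lower and 0.768% higher. These were Atp5a1 at -0.44 ± 0.10 (adjusted p = 0.0382) and Ndufb2 at -0.43 ± 0.10 (adjusted p = 0.0437). Both calls were close to the threshold and were lost without the filter on dim genes and without most single arrays: 0 of 63 were called without any 1 of samples 2 or 3 of control and 1 to 4 of CKO at 4 weeks, and samples 1 or 3 of control and 2, 3 or 4 of CKO at 2 weeks. Sdha differed by -1.19 ± 0.30 (adjusted p = 0.0682) and Cox7a1 by -0.54 ± 0.14 (adjusted p = 0.0661) and did not pass, but with the array-set block both did (adjusted p = 0.00385 and 0.00668). The median over the 63 was -0.22, against 0.03 over all genes, and 55 lay below 0, against 45.7% of all genes. With the array-set block 21 were called lower and 2 higher (5.27% and 7.17% of all genes), the latter Uqcr10 and Cox6b2.

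From 2 to 4 weeks the control hearts showed no called subunit gene, neither higher nor lower (0.485% and 0.242% of all genes in the limma fit), and 4 had an unadjusted p under 0.05, all higher (6.65% of all genes in either direction). These were Cox6a2 at 0.26 ± 0.09, Cox7a1 at 0.29 ± 0.10, Atp5md at 0.12 ± 0.05 and Atp5o at 0.17 ± 0.08, here and below 4 weeks minus 2 weeks. In control hearts Cox7a1 read 3334, 3632 and 3896 at 2 weeks and the values given above at 4 weeks, with no overlap. Across the 63 genes 49 lay above 0 with a median of 0.05, against -0.03 over all genes, of which 55.8% lay below 0, and in 7 every 4-week array lay above every 2-week array (4.91% of all genes). The direction of this median is uncertain: it was -0.009 within set 1, from 1 array at each age, 0.007 after quantile normalization, 0.149 without sample 1 and 0.025 without sample 3 of control at 4 weeks, and 0.100 without sample 2 of control at 2 weeks. With the array-set block Cox6a2 was called higher (0.26 ± 0.06, adjusted p = 0.0178), and Cox6a1, its counterpart of other tissues, was called lower (-0.41 ± 0.12, adjusted p = 0.0483), where 2.87% of all genes were called higher and 3.05% lower. Cox6b2 was also called lower under the block (-0.84 ± 0.20, adjusted p = 0.02).

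In CKO hearts, of 63 genes 10 fell from 2 to 4 weeks and 0 rose, against 2.81% and 3.76% of all genes, with a median of -0.14 against -0.01. Differences lay below 0 in 57 of 63 genes, against 50.9% of all genes. The falls were in complex I (Ndufb2, Ndufb7 and Ndufs1), complex II (Sdha, Sdhc and Sdhd), complex III (Cyc1 and Uqcrc1) and complex V (Atp5a1 and Atp5g2). The limits given above for the second probe sets of Cyc1 and Atp5g2 hold here too, since these probe sets are not given for this comparison. In complex IV 0 of 12 were called, and all 12 lay below 0. The array-set block called Cox7a1, Cox6c, Cox5b and Cox6a1 lower there (adjusted p = 0.0245, 0.0349, 0.039 and 0.00508), and Cox6b2 lay at 0.06. Sdha fell by 0.97 ± 0.19 on the log2 scale (adjusted p = 0.00686) and Atp5g2 by 0.57 ± 0.12 (adjusted p = 0.0126). Ndufb2 differed by -0.35 ± 0.06 (adjusted p = 0.00377) and Atp5a1 by -0.33 ± 0.06 (adjusted p = 0.00459). Under that block 28 fell and 3, Ndufb3, Ndufb5 and Uqcr10, rose (10.8% and 14.3% of all genes). Without the block, 4 to 6 fell when any 1 of samples 1, 2 and 3 of CKO at 4 weeks or 2, 3 and 4 of CKO at 2 weeks was left out. This comparison shares its 4-week CKO arrays with the comparison of CKO and control at 4 weeks. Cox7a1, which lay higher at 4 than at 2 weeks in control hearts, read 3032, 3171, 3702 and 3817 in CKO hearts at 2 weeks and differed by -0.25 ± 0.09 (adjusted p = 0.117, and 0.0245 with the block) at 4 weeks.

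The level of each complex on each array was taken as the median over its genes of the log2 value minus the gene's mean over all arrays. At 4 weeks the level of complex II averaged 0.25 ± 0.02 over the 3 control arrays and -0.33 ± 0.07 over the 5 CKO arrays (SD), with no overlap. Complex V was 0.15 ± 0.10 in control and -0.08 ± 0.07 in CKO hearts. Its groups were only just apart, at 0.03 on the lowest control array and 0.01 on the highest CKO array. Complex I was 0.15 ± 0.13 and -0.16 ± 0.14, complex III 0.11 ± 0.18 and -0.15 ± 0.19, and complex IV 0.14 ± 0.13 and -0.10 ± 0.13, with the same numbers of arrays. The groups were also only just apart for complex I, at 0.01 on the lowest control array and -0.0 on the highest CKO array. For complexes III and IV they overlapped. The control array of set 1 lay below the 3 CKO arrays of set 2 for complex III and among them for complex IV. The effect of the array set, from a least-squares fit with group and set, was then subtracted from each level. The SD in CKO hearts at 4 weeks was then 0.07 for complexes I, II and III, 0.04 for IV and 0.03 for V. Control and CKO hearts at 4 weeks then overlapped in none of the 5. The fit picks the set effect that leaves the least spread within groups, so smaller SDs and less overlap were partly built in. At 2 weeks complex II averaged 0.14 ± 0.03 over 3 control arrays and 0.16 ± 0.13 over 4 CKO arrays (SD), and complex I 0.11 ± 0.06 and 0.02 ± 0.09. Differences between complexes are described here and were not tested.

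**Figure D4:**
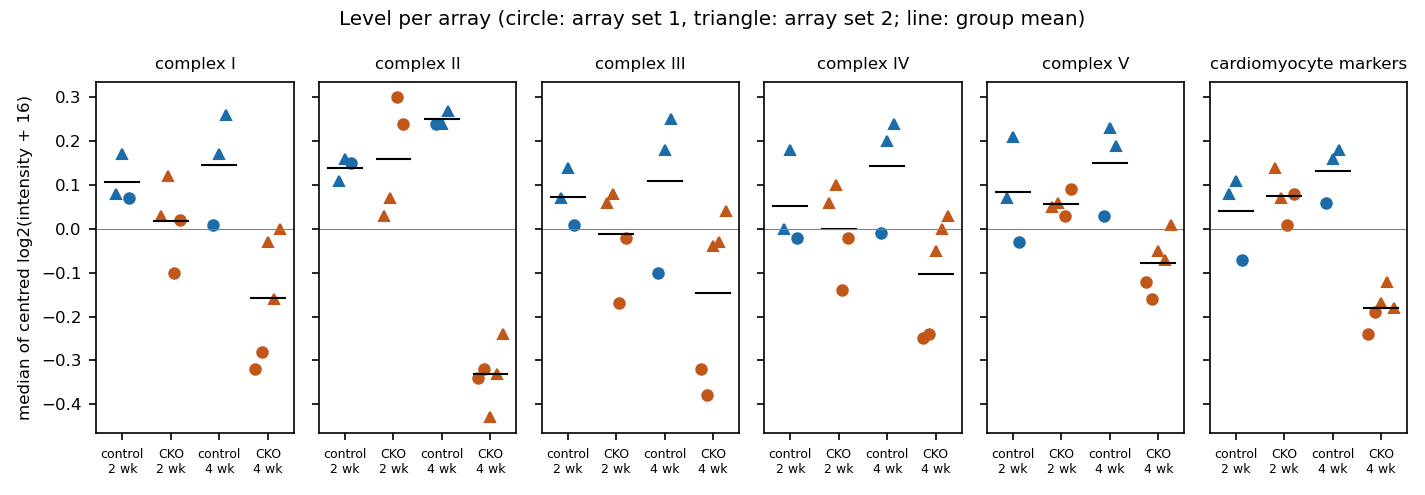
Level of each complex and of the heart muscle markers on each array, as the median over genes of log2(intensity + 16) minus the gene's mean over the 15 arrays; circles are array set 1, triangles array set 2 and lines group means. The mean of CKO hearts at 4 weeks is the lowest in every panel, and complex II is the furthest from control, at -0.33 against 0.25.

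**Figure D5:**
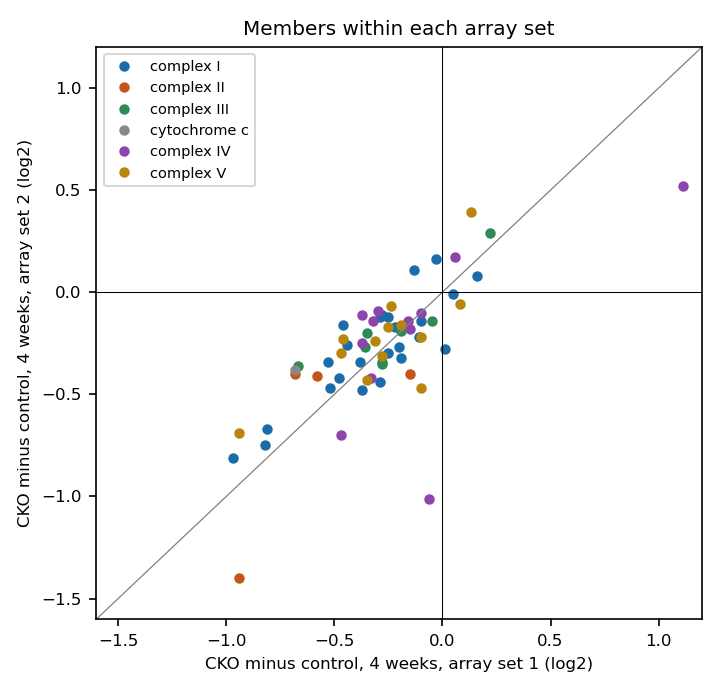
Difference of CKO from control at 4 weeks within array set 1 (x axis) and set 2 (y axis) for the 63 tested genes, on the log2(intensity + 16) scale; the grey line marks equal values. Points lie below 0 on both axes for 53 of 63 genes, and Sdha is at -0.94 and -1.40.

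Across the 63 genes, the difference at 4 weeks had a Spearman correlation of 0.20 with mean intensity, across genes on the same arrays. Probe sets mapped to a member and another symbol, 10 in all and among them Cox7c, Ndufs5, Ndufs6 and Ndufa11, were not used. None of the 13 mitochondrially encoded subunits had a single-symbol probe set, so all values here concern nuclear genes.

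Genes that build or feed the chain were counted in the same way. Of all genes tested, 4.61% were called lower and 6.59% higher at 4 weeks, and 12.2% and 23.2% with the array-set block. Of 49 listed assembly factors 21 were on the array and 18 tested, of which 5 fell and 1 rose at 4 weeks, with a median of -0.35. Under the block 8 fell and 1 rose, the added ones being Uqcc1, Tmem70 and Hccs. Ndufaf4, a complex I assembly factor, differed by -1.10 ± 0.19 (adjusted p = 0.00172), and Lrpprc, which stabilises mitochondrial messenger RNAs, by -0.76 ± 0.14 (adjusted p = 0.00227). Cox17, which delivers copper to complex IV, rose by 0.42 ± 0.11 (adjusted p = 0.0202). Of 18 listed genes that feed electrons to coenzyme Q or make it, 12 were on the array and 10 tested, of which 6 fell and 0 rose, with a median of -0.65. With the block 8 fell, Coq5 and Coq10a in addition. Among them were Etfb, a subunit of the flavoprotein that takes electrons from fatty acid oxidation (-0.79 ± 0.11, adjusted p = 0.000466), Etfdh, which passes them to coenzyme Q (-1.07 ± 0.17, adjusted p = 0.000879), and Coq9 of coenzyme Q synthesis (-0.89 ± 0.15, adjusted p = 0.00122). At 2 weeks none of these genes was called.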

How the data were processed

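The authors' deposited table holds linear microarray intensities for 12422 probe sets on 15 arrays, with a floor of 0.95. No source used here gives its software or scaling. Array medians ran from 173.7 to 216.8. By the platform annotation 10833 probe sets had 1 symbol, 396 several and 1193 none. The deposited scaling was kept, log2(intensity + 16) taken, the brightest single-symbol probe set used per gene and the lowest 40% of genes left out. Groups came from the sample titles. Differences were fitted with limma 3.58.1 in R 4.3.3 over all arrays, with an intensity trend, two-sided tests and Benjamini-Hochberg adjustment over 4950 genes, and the fit was tested on simulated data. The number of arrays limits the precision. The array sets had correlations of at least 0.937 within and at most 0.924 between sets.

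Values per array are given for complex II, Cycs, Cyc1, the isoform pairs and c-subunit genes, the 4 smallest and 2 largest p-values of complexes I, III, IV and V at 4 weeks, the 4 smallest in other comparisons, and genes of interest outside these (Uqcr10, Cox6b2, Ndufs4), chosen after their values were seen. The members and lists were chosen with earlier results of these data known. Alternatives covered scaling, pseudocount, filters, probe set choice, the spread model, blocks and leaving out each array. Figures were drawn with matplotlib 3.10.9.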

Additional observations from a re-analysis of the deposited data

Results flagged for a closer look

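Among 78 checks of groups of 4 or 5 arrays, 3 values stood apart from the rest of their group, and chance gives about 1 in 20. In CKO hearts at 2 weeks sample 1 read 4194 for Ndufb2, where the other 3 arrays lay between 4418 and 4443, and 3887 for Uqcrc1, where they lay between 4170.3 and 4204. Sample 3 of the same group read 3399 for Uqcr11, against 4065 to 4158.

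The CKO effect at 4 weeks minus that at 2 weeks passed the limma test for Ndufb2 (-0.43, adjusted p = 0.0437) and Atp5a1 (-0.44, adjusted p = 0.0382).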

How the results depend on the processing

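Of the 63 tested genes, 17 were called lower in CKO hearts at 4 weeks. This number was 11 under median scaling, without an intensity trend, with only the groups compared and with the title's sample number as a replicate block. It was 46 with the array set as a block, 45 with that block and quantile normalization, 51 with array set and replicate blocks, 38 with blocks for array set and inferred sex, 26 within array set 1, 37 within set 2 and 29 with array weights. Set 1 holds 1 control array at each age, so every fit within set 1 takes that lone array to vary like the other groups, and its medians rest on it. Called higher, against 0, were 1 gene under quantile normalization and within either set, 2 with the array-set block, with both blocks and with array weights, and 3 with block and quantile normalization and with set and sex. Leaving out 1 array gave 8 to 23 called lower, and 34 to 49 with the array-set block. The share of all genes called in either direction at 4 weeks also moved, from 11.2% in the main fit to 35.5% with the array-set block. For the other settings, here and in the comparisons below, the shares of all genes are not given. Changes in these counts therefore do not set the members apart from other genes.

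For the difference of the effect between the ages, with 2 called lower and 0 higher, 0 were lower under median scaling, without a filter on dim genes, with the replicate block and without an intensity trend, and 1 with the lowest 20% left out or the mean of all probe sets. The array-set block called 21 lower and 2 higher, with quantile normalization 19 and 2, with the replicate block added 32 and 2, with set and sex 14 and 2, array weights 14 and 1, set 1 6 and 1, and set 2 7 lower. Leaving out 1 array gave 0 to 2 lower.

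From 2 to 4 weeks in control hearts, against 0 in both directions, 2 were lower and 1 higher with the array-set block, alone or with quantile normalization, 2 and 4 with both blocks, 1 and 2 with set and sex, and 3 higher within set 2 and 5 with array weights. In CKO hearts, against 10 lower and 0 higher, 4 were lower under median scaling and without an intensity trend, 3 with only the groups compared and 5 with the replicate block. The array-set block gave 28 lower and 3 higher, with quantile normalization 34 and 3, with the replicate block added 38 and 3, set and sex 22 and 3, set 1 28 lower, set 2 16 and 3. Quantile normalization alone called 2 higher and array weights 1. Leaving out 1 array gave 4 to 11 lower and 0 to 1 higher.

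The median of complex II at 4 weeks was -0.574 under median scaling, -0.628 within set 1 and -0.407 within set 2. That of complex V was -0.411 under median scaling, -0.232 within set 2 and -0.241 with set and sex, and leaving out 1 array gave -0.394 to -0.183, and -0.406 to -0.215 for complex I. For the difference between ages, complex II was -0.543 with array weights and complex V -0.358 to -0.170 with 1 array left out. In control hearts from 2 to 4 weeks complex II was -0.009 within set 1, the other way, and complex V ran from 0.016 to 0.140 with 1 array left out. In CKO hearts complex I was -0.103 with array weights, complex II -0.525 within set 1, -0.335 within set 2 and -0.539 with array weights, and complex III -0.290 within set 1. Complex V was -0.219 with block and quantile normalization, -0.234 within set 1, and -0.221 to -0.095 with 1 array left out. The mean of all probe sets turned Ndufb7 to 0.003 and Cyc1 to 0.097 at 4 weeks. The causes were not tested.

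Whether the sample numbers pair the arrays cannot be told from these values. Deviations from the group mean correlated at 0.814, 0.668 and 0.889 for the 3 numbers shared at 2 weeks. At 4 weeks they correlated at 0.827, -0.553 and 0.583. The negative pair lay in different array sets and every other pair within the same set, so the array set and a pairing cannot be separated here. The array sets behind every array-set block were themselves found in these data. The fits with both blocks and the fits that leave out 1 array with the array-set block were chosen after seeing the data. Probe sets near background, such as those of the 8 dim genes, limit what can be read from them.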
